A study of Mus musculus with 8 samples.

Results

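The heat shock chaperones of the cytosol and the mitochondrion were followed in whole mouse cerebellum through 39 genes. They comprise 2 heat shock factors, 8 HSP70 proteins of the cytosol and related compartments, 3 HSP110 exchange factors, 8 J-domain proteins, 3 other HSP70 co-chaperones, 2 HSP90 proteins, 6 HSP90 co-chaperones, 4 small heat shock proteins and 3 mitochondrial chaperones. The genes were taken by symbol, and a gene was kept if it had 10 or more counts in at least 4 of the 8 libraries. All 39 were among the 24060 genes of the count table, and all 39 passed. The lowest count of any of them in any library was 44, for Hspa12b.

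RNA came from 4 bigenic and 4 control mice, 1 library per animal. Bigenic mice carried CalExflox, an allele that yields a calcium-exporting plasma membrane pump once Cre has acted, together with Aldh1l1-Cre/ERT2, a Cre that tamoxifen activates and that the astrocyte promoter Aldh1l1 drives. Control mice carried CalExflox alone. All 8 animals were given tamoxifen at 75 mg/kg into the peritoneum, in corn oil at 25 mg/ml, and tissue was collected 5 days later. Sex, age and hour of collection are not given in the labels. Only the bigenic mice carried Cre, so effects of the pump and of Cre cannot be told apart. The tissue was unsorted, so a change in astrocytes and one in other cells cannot be told apart, nor can fewer cells of a type and less RNA per cell.

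Heat shock chaperones keep proteins folded and carry damaged ones to degradation. HSP70 binds exposed hydrophobic stretches of a client, J-domain proteins deliver the client and start ATP hydrolysis, and HSP110 proteins exchange the nucleotide so that the client is let go. Many clients, among them kinases and steroid receptors, then pass through STIP1 to HSP90, whose cycle is set by CDC37, AHSA1, PTGES3 and other partners. Under proteotoxic stress the transcription factor HSF1 forms a trimer and binds heat shock elements, inverted repeats of a short GAA unit, upstream of many of these genes. Neurons are known to hold high levels of the constitutive chaperones HSC70 (Hspa8) and HSP90.

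The letters of such elements were looked up in RefSeq promoter windows (build GRCm38.p6, 250 bases before to 50 bases after each start site). Of the 39 genes, 31 had a window. A 3-unit element was searched as TTCNNGAANNTTC on both strands, and a 2-unit element as GAANNTTC, which reads the same on both strands and lies within every 3-unit element. The 3-unit element was found for 5 genes, Chordc1, Dnajb6, Hspd1, Hspe1 and Hsph1, and in 0.662% of all 27025 genes with a window. The 2-unit element was found for 14 genes and in 9.04% of all genes. A match describes letters only, and binding was not measured. The stretches below are shown because Chordc1, Hsph1 and Dnajb6 changed between the groups while Hspa1a and Hspa1b, the classic heat-induced genes, gave no call. Positions are counted from 1 start site per gene, although the table gives Hsph1 and Dnajb6 a second one. Capitals mark the elements, and overlapping matches form 1 run.
Chordc1: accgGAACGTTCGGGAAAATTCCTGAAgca
Hsph1: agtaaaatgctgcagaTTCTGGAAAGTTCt
Dnajb6: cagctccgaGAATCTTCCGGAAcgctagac
Hspe1: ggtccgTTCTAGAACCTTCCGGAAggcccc
Hspa1a and Hspa1b: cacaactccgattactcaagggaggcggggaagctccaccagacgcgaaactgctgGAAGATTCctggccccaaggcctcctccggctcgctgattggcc
The Chordc1 stretch lies at chr9:18292259-18292288 on the plus strand and spans the start site, from position -8 to 22, with 3 overlapping matches. The Hsph1 stretch, on the minus strand at chr5:149636287-149636316, runs from position 21 to 50 downstream of the start. For Dnajb6 it is chr5:29735843-29735872, plus strand, position -55 to -26. The Hspe1 stretch, chr1:55088053-55088082 on the plus strand, is shared with Hspd1, whose start site lies 216 bases away and faces the other direction. The last stretch is the same 100 bases in both inducible HSP70 genes, chr17:34972217-34972316 for Hspa1a and chr17:34959299-34959398 for Hspa1b, each on the minus strand at position -160 to -61.

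Counted reads ranged between 35208460 and 38150087 in the bigenic group, against 35619445 to 38293012 in the control group. Over all 15186 genes tested, 3249 rose and 3485 fell in bigenic cerebellum, so 44.3% of genes passed the threshold, an adjusted p under 0.05 in edgeR's quasi-likelihood test with Benjamini-Hochberg adjustment over all genes. Scaled by library size alone, the split was 2423 higher and 4373 lower. Markers of the cerebellum were abundant in every animal, with granule neuron markers summing to 5952 to 8108 CPM in bigenic and 5801 to 7068 CPM in control tissue. Ttr, the defining gene of the choroid plexus, had 4.62, 2.43, 2.75 and 2.25 CPM in bigenic mice 1 to 4, against 300.2, 2360, 2961 and 2.76 CPM in control mice 1 to 4. The 12 choroid plexus markers summed to 164 to 233 CPM in bigenic and 296 to 4876 CPM in control libraries. Of the 11 tested 10 fell and 0 rose, and 4 fell and 1 rose without control libraries 2 and 3. Sostdc1, which was not tested, had a count of 0 in at least 1 library. Where leaving out control libraries 2 and 3 changes the number of calls in a class or list, the number without them is given too.

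As a class the chaperone genes fell more often than they rose. In bigenic cerebellum 14 of 39 fell (35.9%, against 22.9% of all genes tested) and 3 rose (7.69%, against 21.4%). Those that fell were Hsf1, Hspa8, Hspa12a, Hspa12b, Hsph1, Hspa4, Hspa4l, Dnajb2, Chordc1, Stip1, Ahsa1, Fkbp4, Cdc37 and Cryab, and those that rose were Dnajb1, Dnajb6 and Hspa9. The share called in either direction, 43.6%, was close to the 44.3% of all genes. Most changes were small. Chordc1, Hspa12b and Hsph1 fell by more than 1.5-fold, 7.69% of the 39 genes against 11.3% of all genes, and 0 rose by that much, against 8.22%. The median log2 fold change was -0.17 over the 39 genes and -0.004 over all genes tested, and 66.7% of the 39 lay below 0, against 50.3% of all genes.

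**Figure D1:**
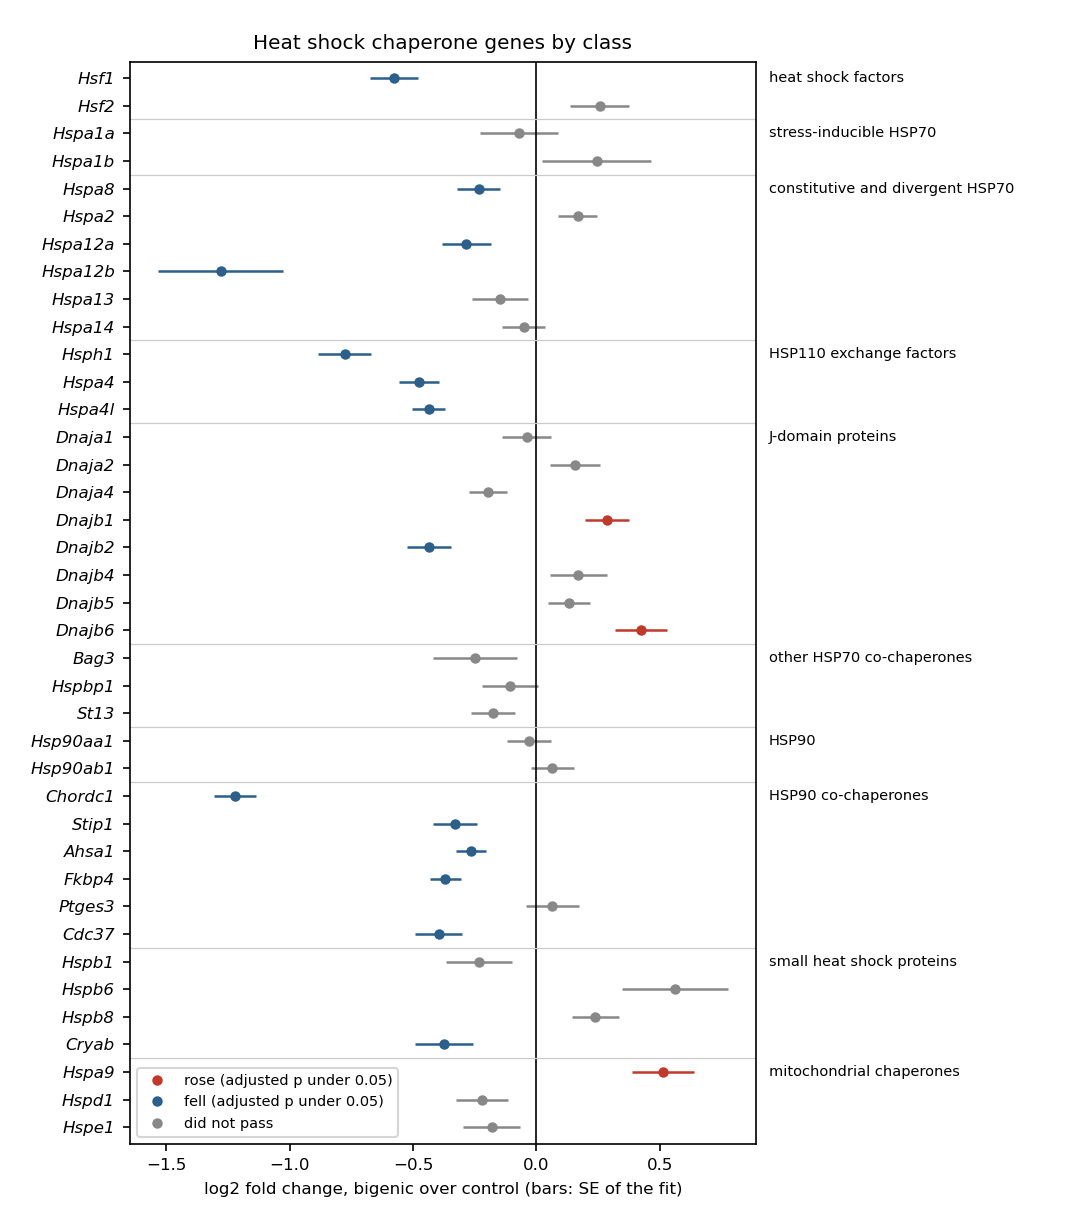
Log2 fold change of each of the 39 genes, bigenic over control, with the standard error of the fit (n = 4 libraries per group), grouped by class. Points for the HSP110 factors and for 5 of the 6 HSP90 co-chaperones lie below 0 and passed the test. Both HSP90 genes and both inducible HSP70 genes did not pass. The errors reach 0 for both HSP90 genes and Hspa1a and stop short of it for Hspa1b (0.24 ± 0.22).

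Without control libraries 2 and 3 the counts were 8 lower and 0 higher, with 3394 genes called in all (1775 lower and 1619 higher). The 8 were Hsf1, Hspa12b, Hsph1, Hspa4, Hspa4l, Dnajb2, Chordc1 and Fkbp4. With Ttr as a covariate 7 fell and 0 rose, Hspa12b being the gene lost (adjusted p = 0.0621). That fit called 2935 genes in all (1665 lower and 1270 higher). All 17 genes called with the 8 libraries had the same sign in both of these fits.

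In 15 of the 39 genes (38.5%, against 40.7% of all genes tested) the 4 bigenic values did not overlap the 4 control values. The bigenic values lay below in 11 of them (28.2%, against 21.4%) and above in 4 (10.3%, against 19.4%).

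**Figure D2:**
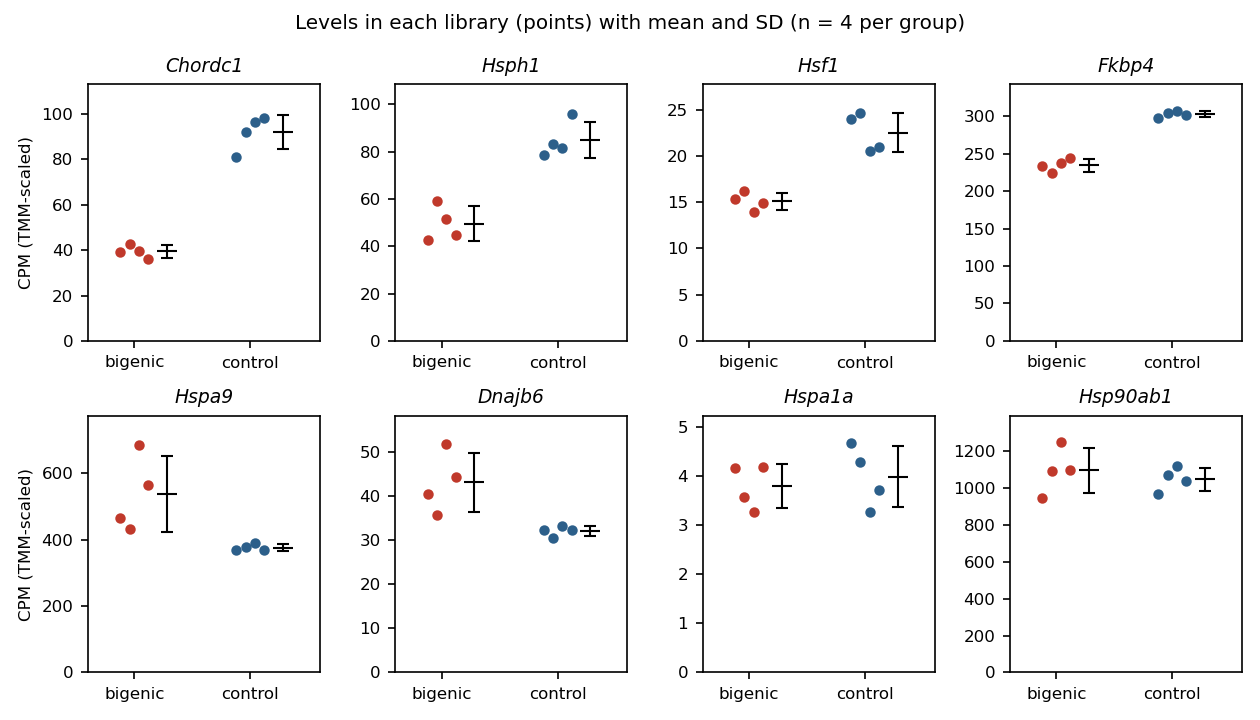
Level in every library of 8 of the genes, as CPM on TMM-scaled library sizes, with group mean and SD (n = 4) beside the points and axes from 0. Bigenic and control points are apart for Chordc1, Hsph1, Hsf1, Fkbp4, Hspa9 and Dnajb6 and overlap for Hspa1a and Hsp90ab1.

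Levels between genes were compared per length, on the authors' FPKM, which are scaled by the column total. On the mean over all 8 libraries Hspa8 was highest, at 462 ± 37.8 FPKM in bigenic and 577 ± 44.6 FPKM in control libraries (SD, n = 4 each), or 20.5% of the FPKM summed over the 39 genes. Hsp90ab1, the constitutive HSP90, followed at 424 ± 41.7 FPKM in bigenic and 430 ± 23.1 FPKM in control libraries. The next on that mean were Hsp90aa1, Hspa9, St13, Fkbp4, Stip1 and Ahsa1, although in bigenic libraries the mean of Hspa9, 171 ± 34.4 FPKM, was above that of Hsp90aa1, 158 ± 14.1 FPKM, by less than the SD of Hspa9. The inducible HSP70 genes were at the other end, with 1.32 ± 0.177 FPKM in bigenic and 1.47 ± 0.231 FPKM in control libraries for Hspa1a. Hspa1b was at 1.15 ± 0.24 FPKM in bigenic and 1.03 ± 0.286 FPKM in control libraries. The ranges of the groups overlapped for both inducible genes. Hspa12b was at 0.70 ± 0.247 FPKM in bigenic and 1.80 ± 0.437 FPKM in control libraries.

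**Figure D3:**
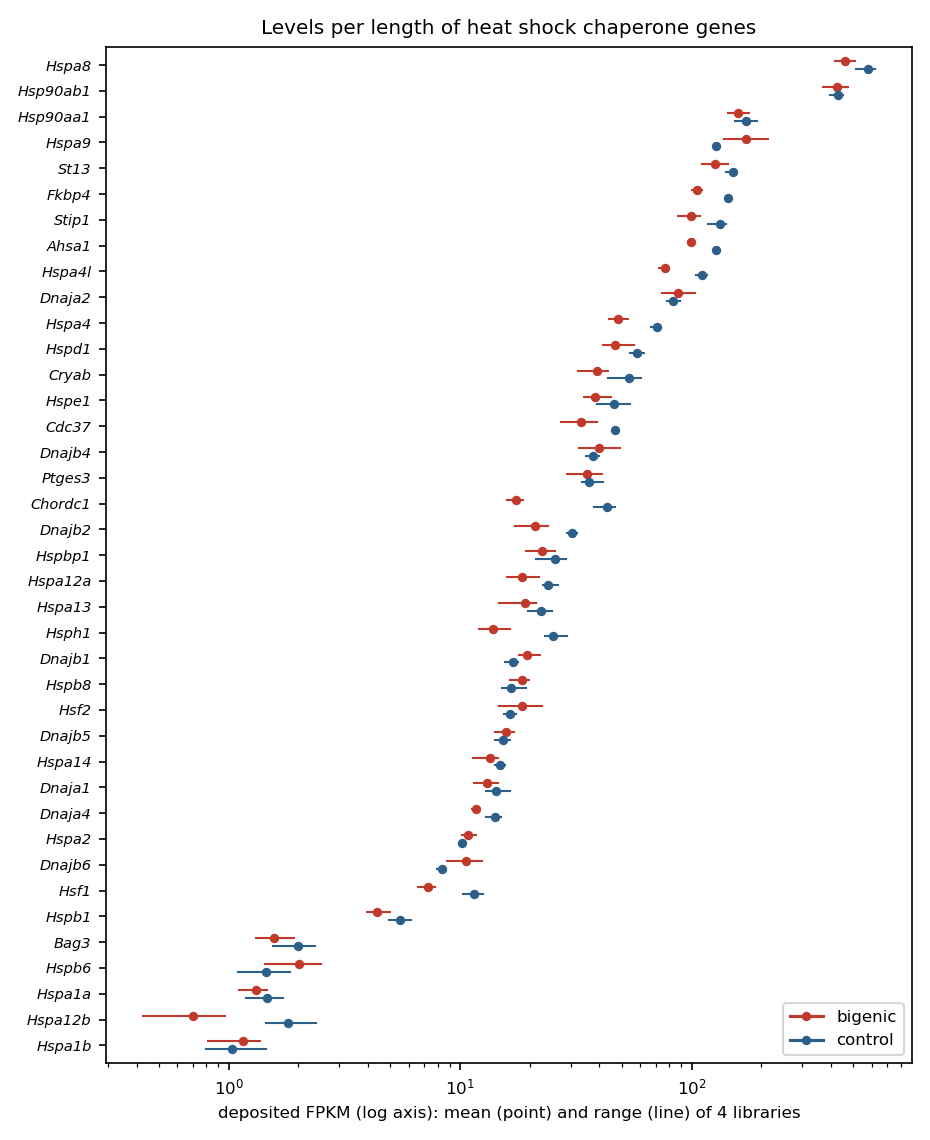
Deposited FPKM of the 39 genes on a log axis, in order of mean level over the 8 libraries, with points for group means and lines from the lowest to the highest library of each group. Levels span from above 400 FPKM for Hspa8 and Hsp90ab1 to about 1 FPKM for Hspa1a, Hspa12b and Hspa1b.

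Of the heat shock factors, Hsf1 fell and Hsf2 gave no call. Hsf1, the master regulator of the heat shock response (chromosome 15, 76477422 to 76501913, plus strand), had 15.3, 16.2, 13.97 and 14.9 CPM in bigenic mice 1 to 4, against 24.0, 24.7, 20.5 and 20.9 CPM in control mice 1 to 4. Every bigenic value lay below every control value. The log2 fold change was -0.58 ± 0.10 (SE, adjusted p = 0.000715), and the call held in all 19 alternative fits, between -0.66 and -0.51. Hsf2, a related factor with roles in development, averaged 50.1 ± 9.53 CPM in bigenic mice and 41.9 ± 2.35 CPM in controls (0.26, adjusted p = 0.103). Its bigenic library 2, at 39.8 CPM, lay among the controls, and without that library Hsf2 passed (0.35, adjusted p = 0.0138). With all libraries Hsf2 passed with a replicate block (0.24, adjusted p = 0.0475).

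The stress-inducible HSP70 genes are standard targets of HSF1. Of the 2 genes 0 passed in edgeR, 0 had an unadjusted p under 0.05, and DESeq2 and limma on log2(FPKM + 1) also called 0. Hspa1a (chromosome 17, 34969190 to 34972156, minus strand) had 4.16, 3.57, 3.26 and 4.17 CPM in bigenic mice, against 4.67, 4.28, 3.27 and 3.71 CPM in control libraries. The difference was -0.07 ± 0.16 on the log2 scale (adjusted p = 0.739). Hspa1b (chromosome 17, 34956436 to 34959238, minus strand) had 3.91, 2.35, 3.68 and 3.42 CPM in bigenic mice, against 3.95, 2.69, 2.22 and 2.42 CPM in control libraries, a difference of 0.24 ± 0.22 (adjusted p = 0.387). The groups overlapped for both genes. The lowest count in any library was 109 for Hspa1a and 80 for Hspa1b. Their coding sequences are 99.43% identical, and 54.2% of the 75-nt windows of Hspa1a and 55.8% of those of Hspa1b occur in another gene's transcripts, so reads may be split or dropped between them and the separate values are uncertain.

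Among the constitutive and divergent HSP70 proteins 3 of 6 fell and 0 rose, where 22.9% of all genes tested fell and 21.4% rose. Without control libraries 2 and 3, 1 of the 6 fell. Hspa8, the housekeeping HSC70 that also uncoats clathrin vesicles, was at 896, 991, 1131 and 995 CPM in bigenic mice, against 1054, 1190, 1293 and 1181 CPM in control libraries. Bigenic library 3 overlapped the controls. The decrease of -0.23 ± 0.09 stood at the threshold (adjusted p = 0.0473) and did not pass without bigenic library 1, 2 or 4 or control library 2, 3 or 4 (adjusted p between 0.061 and 0.138). It also missed with RLE factors (adjusted p = 0.0611), in DESeq2 (adjusted p = 0.0518) and without control libraries 2 and 3 (adjusted p = 0.341). About 32.8% of the 75-nt windows of Hspa8 recur in other genes. Hspa12a, an atypical brain-expressed HSP70, averaged 109 ± 15.6 CPM in bigenic mice and 133 ± 8.11 CPM in controls (-0.28, adjusted p = 0.0347). Leaving out bigenic library 1, 3 or 4 or control library 2, 3 or 4 took that call away (adjusted p between 0.0549 and 0.0999).

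Hspa12b, an atypical HSP70 of blood vessel endothelium (chromosome 2, 131127280 to 131146321, plus strand), fell, at 2.88, 2.57, 1.32 and 1.70 CPM in bigenic mice, against 6.80, 5.46, 4.30 and 4.06 CPM in control libraries. All 4 bigenic values lay below the controls (-1.28 ± 0.25, adjusted p = 0.00195). Among 8 endothelial markers 3 fell, 0 rose and 5 did not pass, where 22.9% of all genes tested fell and 21.4% rose. Without control libraries 2 and 3, 2 of these markers fell and 0 rose. With all libraries 0 of them had a count of 0. Their summed level was 189 to 210 CPM in bigenic and 227 to 255 CPM in control libraries. Their part in the Hspa12b result was not tested. Hspa2, best known from spermatocytes, did not pass, with a mean of 29.8 ± 2.2 CPM in bigenic mice and 26.6 ± 0.165 CPM in controls (0.17, adjusted p = 0.111), although its 4 bigenic values lay above the 4 control values. Hspa13, a microsome-associated HSP70 (-0.15, adjusted p = 0.314), and Hspa14, a ribosome-associated one (-0.05, adjusted p = 0.658), also gave no call.

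All 3 HSP110 exchange factors fell, where 22.9% of all genes tested fell, and all 3 passed in each of the 19 alternatives. Hsph1, the heat-inducible HSP105 (chromosome 5, 149614287 to 149636376, minus strand), had 42.7, 59.0, 51.4 and 44.9 CPM in bigenic mice, against 78.8, 83.4, 81.5 and 95.8 CPM in control libraries. The highest bigenic library was well under the lowest control (-0.78 ± 0.11, adjusted p = 0.000223). Hspa4, also called APG-2, was at 209, 232, 260 and 216 CPM in bigenic mice, against 302, 320, 335 and 317 CPM in controls (-0.48 ± 0.08, adjusted p = 0.00076). Hspa4l, or APG-1, was at 289, 285, 270 and 284 CPM in bigenic mice, against 362, 370, 398 and 397 CPM in controls (-0.44 ± 0.07, adjusted p = 0.000365). The groups were apart for all 3 genes, as they were for 40.7% of all genes tested. Summed over them, the level per length was 139 ± 2.89 FPKM in bigenic and 206 ± 9.72 FPKM in control libraries.

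Of the 8 J-domain proteins 2 rose and 1 fell, where 21.4% of all genes tested rose and 22.9% fell. Dnajb6, a suppressor of polyglutamine aggregation, was at 40.5, 35.8, 51.7 and 44.3 CPM in bigenic mice, against 32.3, 30.5, 33.1 and 32.3 CPM in control libraries. The groups did not overlap, and bigenic library 3 stood highest (0.42 ± 0.11, adjusted p = 0.00747). Of its 75-nt windows 16.2% recur in other genes, and its exons overlap Gm5129 on the opposite strand. Dnajb1, the HSP40 that works with inducible HSP70, was at 43.7, 44.7, 52.5 and 41.5 CPM in bigenic mice, against 39.2, 39.0, 34.8 and 36.4 CPM in controls (0.29 ± 0.09, adjusted p = 0.0216). Its groups were also apart, but the call went without bigenic library 3 or control library 3 or 4 (adjusted p between 0.0558 and 0.068). It also went with upper-quartile factors (adjusted p = 0.0537), with library size alone (adjusted p = 0.0767) and in limma on both FPKM scales (adjusted p = 0.073 and 0.0722). Dnajb2, a neuronal J-domain protein that sorts clients for the proteasome, was at 71.4, 79.4, 58.4 and 69.7 CPM in bigenic mice, against 99.0, 92.7, 91.3 and 94.0 CPM in control libraries. It fell by 0.44 on the log2 scale (adjusted p = 0.00264). Without control libraries 2 and 3 the class stood at 0 higher and 1 lower, with Dnajb6 at 0.41 (adjusted p = 0.076) and Dnajb1 at 0.27 (adjusted p = 0.153).

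The other 5 J-domain genes did not pass. Dnaja1 and Dnaja2, general HSP70 partners of the cytosol, differed by -0.04 (adjusted p = 0.772) and 0.16 (adjusted p = 0.234). Dnaja4 lay nearest to the threshold, at 36.1 ± 1.32 CPM in bigenic mice and 41.4 ± 2.37 CPM in controls (-0.20, adjusted p = 0.0528). It passed without bigenic library 3 (adjusted p = 0.0306) or control library 1 (adjusted p = 0.0304). With all libraries Dnaja4 passed with upper-quartile factors (adjusted p = 0.0155), with library size alone (adjusted p = 0.0101) and in DESeq2 (adjusted p = 0.0443). In limma it passed on both FPKM scales (adjusted p = 0.0101 each). Dnajb4 and Dnajb5, both relatives of Dnajb1, were at 0.17 (adjusted p = 0.245) and 0.13 (adjusted p = 0.223). Of the 3 other HSP70 co-chaperones edgeR called 0, 0 had an unadjusted p under 0.05, DESeq2 called 0 and limma on log2(FPKM + 1) called 1 (St13). Bag3, an HSF1-induced exchange factor for selective autophagy, averaged 4.20 ± 0.724 CPM in bigenic mice and 4.99 ± 0.844 CPM in controls (-0.25, adjusted p = 0.251). Hspbp1, another exchange factor, was at -0.11 (adjusted p = 0.462), and St13, the HSC70-interacting protein HIP, at -0.17 (adjusted p = 0.13). St13 passed without bigenic library 3 (-0.26, adjusted p = 0.0136). With all libraries it passed with upper-quartile factors (adjusted p = 0.0429), library size alone (adjusted p = 0.0242) and in limma on both FPKM scales (adjusted p = 0.0253 and 0.0242).

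Of the 2 genes of HSP90 itself 0 passed in edgeR, 0 had an unadjusted p under 0.05, and DESeq2 and limma on log2(FPKM + 1) called 0. Hsp90aa1, the inducible form, was at 448, 423, 533 and 458 CPM in bigenic mice, against 428, 467, 484 and 523 CPM in controls (-0.03 ± 0.09, adjusted p = 0.803). Hsp90ab1, the constitutive form, was at 946, 1092, 1248 and 1096 CPM in bigenic mice, against 968, 1070, 1117 and 1036 CPM in controls (0.06 ± 0.09, adjusted p = 0.577). The groups overlapped for both. The sign turned for Hsp90ab1 when library size alone scaled the counts (-0.022) and for Hsp90aa1 without bigenic library 2 (0.013) or control library 4 (0.016). Of the 75-nt windows of Hsp90aa1, 42.8% recur in other genes, so part of its reads may have been assigned elsewhere.

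Of the 6 HSP90 co-chaperones 5 fell and 0 rose, where 22.9% of all genes tested fell and 21.4% rose. Chordc1, or CHP-1, an HSP90-binding zinc protein (chromosome 9, 18292125 to 18317442, plus strand), had 39.2, 42.7, 39.8 and 35.9 CPM in bigenic mice, against 81.1, 92.2, 96.3 and 98.1 CPM in control libraries. Even the highest bigenic value lay far under the lowest control value. The log2 fold change of -1.22 ± 0.08 (adjusted p = 3.56e-06) lay between -1.31 and -1.18 in all 19 alternatives. Fkbp4, the immunophilin of steroid receptor complexes, was at 233, 223, 237 and 244 CPM in bigenic mice, against 298, 304, 307 and 302 CPM in controls (-0.37 ± 0.06, adjusted p = 0.000704), and it too passed in all 19. The 4 values of each group lay close together and apart from the other group.

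Stip1, the HOP adaptor that links HSP70 to HSP90, averaged 223 ± 23.9 CPM in bigenic mice and 280 ± 21.3 CPM in controls (-0.33, adjusted p = 0.0113). Ahsa1, the activator of the HSP90 ATPase, averaged 135 ± 2.54 CPM in bigenic mice and 163 ± 3.79 CPM in controls (-0.26, adjusted p = 0.00444). Cdc37, the kinase-loading co-chaperone, averaged 84.3 ± 11.8 CPM in bigenic mice and 111 ± 1.97 CPM in controls (-0.40, adjusted p = 0.00558). In each of these 3 genes all bigenic values lay below all control values, as in 21.4% of all genes tested. Without control libraries 2 and 3 the class count was 2 lower and 0 higher, and Stip1 stood at -0.28 (adjusted p = 0.127), Ahsa1 at -0.24 (adjusted p = 0.0886) and Cdc37 at -0.38 (adjusted p = 0.0638). Ptges3, the late-acting p23, gave no call (0.06 ± 0.11, adjusted p = 0.653).

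The 4 small heat shock proteins, ATP-independent holdases, included 1 that fell and 0 that rose, where 22.9% of all genes tested fell and 21.4% rose. Cryab, the alpha-B crystallin, abundant in oligodendrocytes and astrocytes, was at 40.3, 49.9, 56.0 and 51.1 CPM in bigenic mice, against 51.8, 66.1, 67.5 and 70.4 CPM in control libraries. Bigenic library 3 exceeded control library 1, so the groups overlapped (-0.38 ± 0.12, adjusted p = 0.0221). The call went without bigenic library 1 or control library 2, 3 or 4 (adjusted p between 0.0573 and 0.0623), and without control libraries 2 and 3 the class had 0 calls. Exons of Cryab overlap Hspb2 on the opposite strand. Hspb6, the muscle-enriched HSP20, averaged 2.73 ± 0.559 CPM in bigenic mice and 1.85 ± 0.407 CPM in controls (0.56 ± 0.21, adjusted p = 0.0514). It passed without bigenic library 3 (adjusted p = 0.024) or control library 4 (adjusted p = 0.0323). With all libraries Hspb6 passed with RLE factors (adjusted p = 0.0467) and in DESeq2 (adjusted p = 0.0378). Hspb8, the partner of Bag3, averaged 34.4 ± 2.16 CPM in bigenic mice and 29.2 ± 3.3 CPM in controls (0.24 ± 0.10, adjusted p = 0.0599). It passed without bigenic library 3 (adjusted p = 0.0401) or control library 2 (adjusted p = 0.024). With all libraries Hspb8 passed with RLE factors (adjusted p = 0.0499), in DESeq2 (adjusted p = 0.0434) and with a replicate block (adjusted p = 0.0432). Hspb1, the heat-inducible HSP27, differed by -0.23 (adjusted p = 0.181), and it passed in limma on both FPKM scales (adjusted p = 0.0354 and 0.0359). It shares 46.4% of its 75-nt windows with other genes.

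In the mitochondrion 1 of 3 chaperones rose and 0 fell, where 21.4% of all genes tested rose and 22.9% fell. Without control libraries 2 and 3, 0 rose and 0 fell. Hspa9, the matrix HSP70 called mortalin that pulls proteins in through the import channel, was at 466, 431, 687 and 566 CPM in bigenic mice, against 370, 378, 389 and 369 CPM in control libraries. Bigenic library 3 was the highest, and all 4 bigenic values lay above the controls. The log2 fold change was 0.51 ± 0.12 (adjusted p = 0.00624), and 0.54 without control libraries 2 and 3 (adjusted p = 0.0501). Hspd1 and Hspe1, the HSP60 and HSP10 that form the matrix folding chamber and share a promoter, both had lower means in bigenic tissue and did not pass. Hspd1 was at 98.1, 99.7, 138 and 115 CPM in bigenic mice, against 123, 130, 135 and 138 CPM in controls (-0.22 ± 0.11, adjusted p = 0.107). Bigenic library 3 alone reached the control range, and without it Hspd1 passed (-0.34, adjusted p = 0.00535). With all libraries Hspd1 also passed with upper-quartile factors (adjusted p = 0.0438), library size alone (adjusted p = 0.0263) and a replicate block (adjusted p = 0.03). It passed in limma on both FPKM scales too (adjusted p = 0.0266 and 0.0253). Hspe1 averaged 30.4 ± 3.98 CPM in bigenic mice and 34.5 ± 4.52 CPM in controls (-0.18 ± 0.12, adjusted p = 0.227). Windows of 75 nt recurring in other genes made up 29.6% of Hspd1 and 11.9% of Hspe1.

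Values of the 39 genes differed more between bigenic than between control animals. Bigenic library 3 held the highest value of its group for 20 of the 39 genes, and bigenic library 2 the lowest for 16. Among controls, library 1 was lowest for 21 genes and library 4 highest for 15. The median coefficient of variation was 12.4% in bigenic and 6.92% in control libraries, and it was larger in bigenic libraries for 28 of the 39 genes. It was not taken over all genes tested, so the difference is not shown to be particular to these genes. Relative to the control mean, the median gene stood at 0.01 on the log2 scale in bigenic library 3 and between -0.24 and -0.14 in the other 3 bigenic libraries. Leaving out bigenic library 3 changed the calls of Hspd1, St13, Dnaja4, Dnajb1, Hspb6, Hspb8 and Hspa12a, with the values given above.

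**Figure D4:**
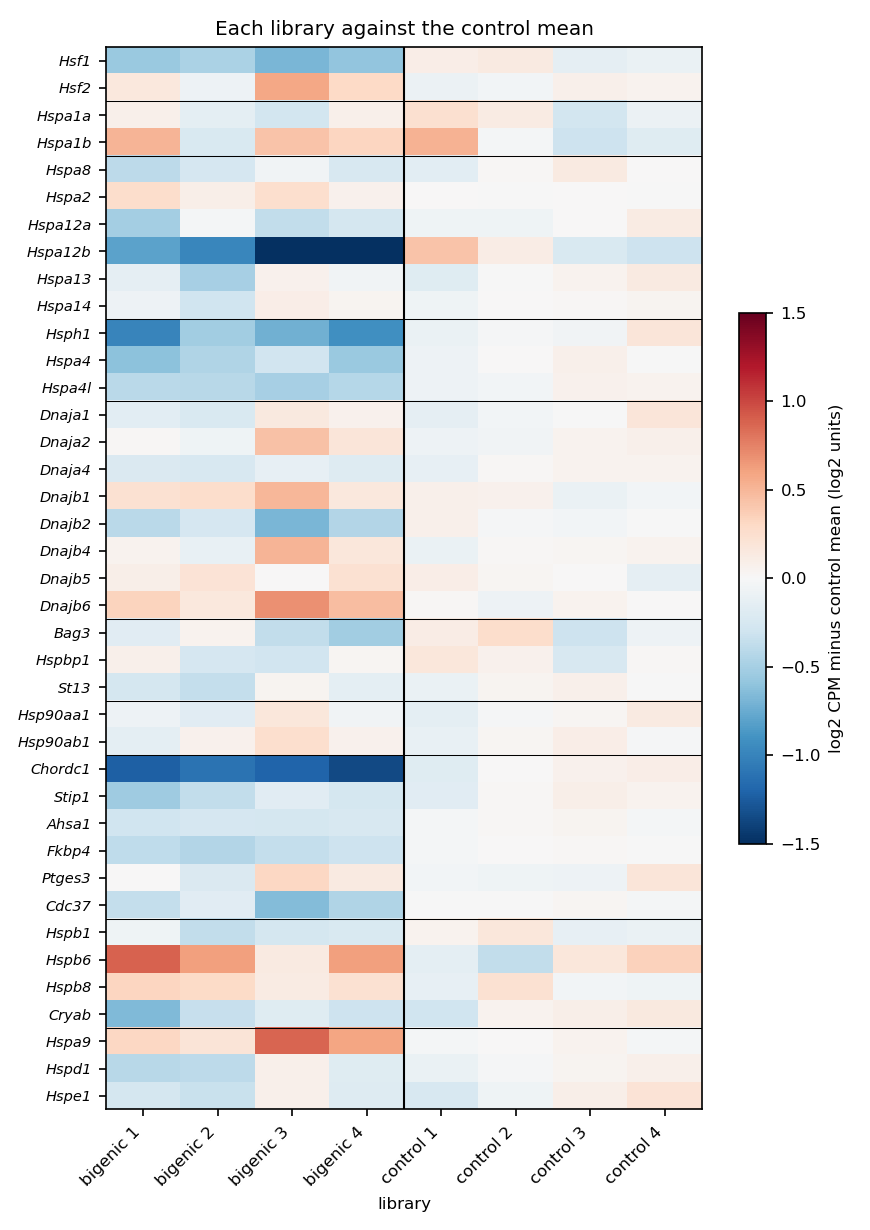
Log2 CPM of each of the 39 genes in each library minus the mean of the 4 control libraries, bigenic libraries at the left, and values beyond the colour scale take its end colour. The block from Hsph1 to Hspa4l and the block from Chordc1 to Cdc37 without Ptges3 are below the control mean in all 4 bigenic libraries, and bigenic library 3 is the highest of its group for Hspa9.

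Calls were also counted by the letters in the promoter window. Of the 5 genes with a 3-unit element 2 fell (Chordc1 and Hsph1), 1 rose (Dnajb6) and 2 did not pass (Hspd1 and Hspe1). Of the 14 with a 2-unit element, which include those 5, 3 fell (21.4%), 1 rose and 10 did not pass. Of the 17 with neither in the window 8 fell (47.1%), 1 rose and 8 did not pass. Exact matches within the window alone were counted, so these genes are not shown to lack a heat shock element. Over all 11245 tested genes with a window 23.3% fell and 21.3% rose. Without control libraries 2 and 3, 2 of the 5, 3 of the 14 and 4 of the 17 fell, and 0 rose in each set. The genes with no window were Hsf1, Hspa8, Hspa13, St13, Hsp90aa1, Hsp90ab1, Cryab and Hspa9. These 8 genes had 3 lower, 1 higher and 4 that did not pass in the fit of all libraries. The differences between these counts were not tested.

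Related chaperone lists gave other counts in the same fit, in which 21.4% of all genes tested rose and 22.9% fell. The CCT chaperonin, the ring that folds actin and tubulin, had 0 of 8 subunits called by edgeR. An unadjusted p under 0.05 was found for 2, Cct4 (-0.18) and Cct6a (0.28). DESeq2 called 1, which rose, and limma on log2(FPKM + 1) called 2, which both fell. With upper-quartile factors or library size alone 2 fell and 0 rose. A replicate block gave 2 higher and 1 lower, and without bigenic library 2, 3 of the 8 rose. Prefoldin, which hands clients to it, had 1 of 6 higher (Pfdn2, 0.36, adjusted p = 0.0359) and 0 lower. That call went without bigenic library 3 or 4 or control library 1, 2 or 3 (adjusted p between 0.0619 and 0.102) and without control libraries 2 and 3 together (adjusted p = 0.19), whereas 4 of the 6 rose without bigenic library 2. It also went with upper-quartile factors (adjusted p = 0.0716), with library size alone (adjusted p = 0.0957) and on both FPKM scales (adjusted p = 0.0822 and 0.0793). Of 12 other HSP90 co-chaperones 3 rose and 6 fell, and 2 rose and 3 fell without control libraries 2 and 3. Fkbp5, a glucocorticoid-induced immunophilin, was at 100.2, 96.4, 107 and 102 CPM in bigenic mice, against 12.6, 8.54, 4.63 and 7.65 CPM in controls (3.60 ± 0.23, adjusted p = 3.56e-06). Unc45a, a myosin chaperone, rose by 0.49, while Ahsa2, a paralogue of Ahsa1, fell by 1.08 and Tomm34, a mitochondrial import co-chaperone, fell by 0.60.

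Of 17 other J-domain and BAG proteins 5 rose and 3 fell, where 21.4% of all genes tested rose and 22.9% fell. Without control libraries 2 and 3, 2 rose and 0 fell. Leaving out control library 1 or 2 alone left 3 that rose, as did both FPKM scales. Dnajc5, the synaptic vesicle protein CSP-alpha, rose by 0.50, and Dnajb12, a J-domain protein of the reticulum membrane, rose by 0.49. Dnajc2, which sits on the ribosome, fell by 0.40 (adjusted p = 0.0517 without control libraries 2 and 3) and Bag1, an HSP70 exchange factor, fell by 0.33 (adjusted p = 0.0754 without them). Of 11 other mitochondrial chaperones and proteases 2 rose and 3 fell, and 1 rose and 2 fell without those libraries. With upper-quartile factors, library size alone or either FPKM scale 1 rose and 6 fell. Clpx, the unfoldase of the ClpXP protease, rose by 0.62. Trap1, the mitochondrial HSP90, fell by 0.45, and Dnaja3, the matrix partner of Hspa9, fell by 0.40. With Ttr as a covariate 1 of the 11 rose and 1 fell, and Dnaja3 did not pass (-0.37, adjusted p = 0.0631). Grpel2, a nucleotide exchange factor of Hspa9, was at 0.26 (adjusted p = 0.0484) and did not pass without bigenic library 3 or 4 or any 1 control library (adjusted p between 0.0546 and 0.123), nor with upper-quartile factors (adjusted p = 0.104) or library size alone (adjusted p = 0.147). Among the remaining small heat shock proteins 3 of 6 were tested, of which Hspb2 rose by 1.18 at 1.06 ± 0.196 CPM in bigenic mice and 0.465 ± 0.225 CPM in controls, and Hspb11, a protein of cilia, fell by 0.69.

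A set of 9 further genes of the heat shock response, among them genes induced by proteotoxic stress and the remaining heat shock factors, had 5 higher and 0 lower, where 21.4% of all genes tested were higher, and 3 higher without control libraries 2 and 3. Leaving out bigenic library 1 or 4 or control library 2, 3 or 4 alone also left 3, as did upper-quartile factors, library size alone and both FPKM scales. With Ttr as a covariate 1 was higher and 0 lower. Sqstm1, the autophagy receptor p62, was at 501, 421, 559 and 530 CPM in bigenic mice, against 352, 355, 347 and 349 CPM in controls (0.52 ± 0.09, adjusted p = 0.000682). Hsf5, a testis-enriched relative of Hsf1, was at 1.63, 1.30, 3.71 and 1.61 CPM in bigenic mice, against 0.564, 0.744, 0.610 and 0.747 CPM in controls (1.62, adjusted p = 0.0025), with bigenic library 3 far above the rest. The other 3 that rose were Zfand2a, Ubb and Ier5. The 1 that passed with Ttr as a covariate was Sqstm1, and Hsf5 did not pass there (1.51, adjusted p = 0.0751).

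The chaperones of the endoplasmic reticulum, which answer to a separate stress pathway, mostly fell. Of 14 such genes 10 fell and 1 rose, where 22.9% of all genes tested fell and 21.4% rose. The median log2 fold change was -0.66, against -0.17 over the 39 heat shock genes and -0.004 over all genes. Without control libraries 2 and 3 the counts were 8 lower and 0 higher. Serpinh1, the collagen chaperone HSP47 and itself heat-inducible, was at 18.9, 19.5, 17.3 and 19.8 CPM in bigenic mice, against 46.6, 51.4, 42.9 and 40.9 CPM in controls (-1.26 ± 0.09, adjusted p = 5.23e-06). Pdia4, a disulfide isomerase, averaged 38.3 ± 3.64 CPM in bigenic mice and 91.1 ± 9.86 CPM in controls (-1.25, adjusted p = 7.37e-06). Dnajb9, a BiP partner, was the one that rose (0.38, adjusted p = 0.0151, and 0.0755 without control libraries 2 and 3).

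**Figure D5:**
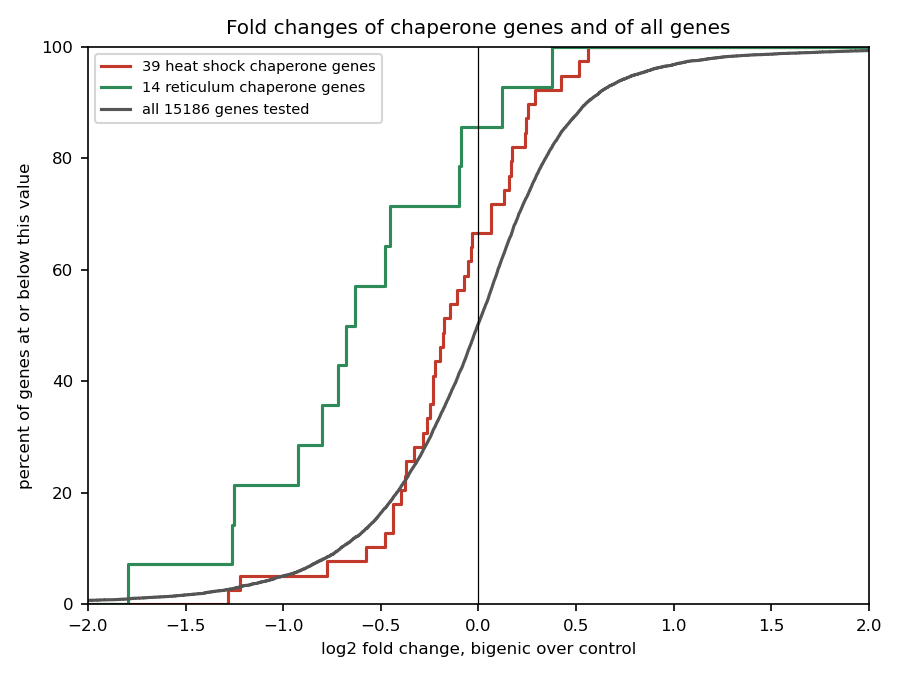
Percent of genes at or below each log2 fold change, bigenic over control, for the 39 heat shock chaperone genes, the 14 reticulum chaperone genes and all genes tested. The curve of the 39 genes crosses the middle at -0.17 and that of the reticulum genes at -0.66, both left of all genes at -0.004.

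The cold-inducible RNA-binding proteins, which mild heat lowers and mild cooling raises, both rose. Cirbp was at 304, 255, 352 and 347 CPM in bigenic mice, against 85.5, 60.3, 67.3 and 62.5 CPM in controls (2.19 ± 0.13, adjusted p = 2.65e-06). Rbm3 was at 102, 81.5, 125 and 107 CPM in bigenic mice, against 33.9, 28.9, 31.5 and 30.8 CPM in controls (1.73 ± 0.12, adjusted p = 3.2e-06). Every bigenic value of both genes lay above every control value, and both also passed without control libraries 2 and 3.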

How the data were processed

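Whole cerebellum of 4 bigenic and 4 control mice was profiled by bulk RNA sequencing. The authors deposited read counts per gene, whole numbers that were not normalised, and FPKM. The deposited FPKM equal the counts divided by a fixed gene length and the column total, as checked on the values. STAR, HTSeq and build mm10 are named in the submitters' processing notes, and their versions are not given in the sources used here. The labels disagree on the library kit, 1 of the 2 descriptions naming a stranded one, and do not say whether counting used strand, so exons that overlap a gene on the opposite strand, as in Hspa1a, Hspa12a, Dnaja1, Dnaja4, Dnajb6, Hspb6, Cryab, Hspd1 and Hspe1, 9 of the 39 genes, may share reads.

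The test on counts was that of edgeR 4.0.16 under R 4.3.3 (filterByExpr, TMM, robust quasi-likelihood F test, Benjamini-Hochberg over 15186 genes), and a gene was called at an adjusted p under 0.05. Log2 fold changes are bigenic over control with the standard error of the fit, and CPM use TMM-scaled library sizes. Alternatives used other scalings and filters, DESeq2 1.42.0, limma 3.58.1 on log2(FPKM + 1) and log2(FPKM + 0.1), a replicate block, each library left out, control libraries 2 and 3 left out, and Ttr as a covariate. The fits were tested on simulated counts. Coordinates are from GENCODE M21 (GRCm38) and counted from 1. A 75-nt window was counted as shared where it occurs in a transcript of another gene.

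The 39 genes, the lists and the tests were chosen with earlier results of these data known. All 39 are named, with up to 2 genes per direction of smallest p from each related list, and Cirbp and Rbm3. Zfand2a, Ubb, Ier5, Cct4 and Cct6a were named after their values were seen. A further gene of the heat shock response list is not reported here. Striatal tissue was not analysed here.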

Additional observations from a re-analysis of the deposited data

Results flagged for a closer look

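Of 78 groups of 4 values checked for a value far from the other 3, 1 stood out, and chance alone marks about 1 in 20 groups. Ptges3, the HSP90 co-chaperone p23, was at 77.11 CPM in control library 4, while control libraries 1 to 3 lay between 64.58 and 66.45 CPM. The gap was 0.851 of the range of the group.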

How the results depend on the processing

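Of 741 values of the 39 genes over 19 alternatives, 649 kept their sign and side of the threshold, 44 lost the call, 31 gained one and 17 changed sign. Hsf1, Hsph1, Hspa4, Hspa4l, Dnajb2, Chordc1 and Fkbp4 were called in all 19. Numbers of higher genes became 5 with RLE factors, 5 with DESeq2 and 5 with the replicate block, and 0 without control libraries 2 and 3 and 0 with the Ttr covariate, where numbers of lower genes became 8 and 7. All genes changed then numbered 3394 (1619 higher, 1775 lower) and 2935 (1270 higher, 1665 lower). Fewer libraries or degrees of freedom entered these 2 fits. Ttr was low in every bigenic library and high in control libraries 1 to 3, so the covariate and the group overlap in part. For Hspa9 the SE was 0.124 in the main fit and 0.202 with the covariate. Leaving out 1 library gave 2 to 4 higher and 11 to 16 lower among the 39, with medians from -0.23 to -0.11, and 5281 to 7411 changed genes (2544 to 3588 higher, 2737 to 3823 lower). The split over all genes was 2641 higher and 4105 lower with upper-quartile factors and 2370 higher and 4353 lower on log2(FPKM + 1).

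Signs turned for uncalled genes, and the cause was not tested. Hsp90ab1 was at -0.022 by library size alone and -0.026 on both FPKM scales, and between -0.011 and 0.13 with 1 library left out. Ptges3 was at -0.023 by library size alone, -0.028 on log2(FPKM + 1), -0.029 on log2(FPKM + 0.1), -0.01 without control libraries 2 and 3 and -0.099 with the Ttr covariate, and between -0.032 and 0.148 with 1 library left out. Values with 1 library left out ranged from -0.114 to 0.023 (Dnaja1), from -0.109 to 0.016 (Hsp90aa1), from -0.112 to 0.022 (Hspa14) and from -0.156 to 0.013 (Hspa1a).

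Same-numbered libraries deviated from their group means with correlations of 0.33, 0.02, 0.17 and 0.06, and bigenic library 2 did not correlate best with its own number, so the numbers were not taken as pairs. The replicate block gave 5 higher and 15 lower among the 39 and 7443 changed genes, against 3, 14 and 6734 without it. Genes near 1 CPM, such as Hspb2, rest on as few as 8 counts in a library.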

Other observations

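Beyond the 39 genes, the 3-unit heat shock element was looked up in the promoter windows of all genes tested. It was found for 66 of them, 5 of which are among the 39. Of the 66 genes 14 rose (21.2%) and 16 fell (24.2%) in bigenic cerebellum, where 21.3% of the 11245 tested genes with a window rose and 23.3% fell. The median log2 fold change was 0.05 over the 66 genes and -0.007 over the 11245. Among the 61 that are outside the 39, 13 rose and 14 fell. These are counts of letters in a window, with no test, and binding of a factor was not measured.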
